A study of Homo sapiens with 4 samples.

Results

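The genes examined here encode the proteins of the mitochondrial ribosome, taken as every gene whose symbol in the array's annotation is MRPL or MRPS followed directly by a number. The rule found 67 genes, measured by 76 probes, among 17778 named genes. Of these, 45 encode proteins of the large subunit and 22 proteins of the small subunit. Among them are MRPS30 and MRPS18A, which carry small-subunit names and are known from structures to sit in the large subunit. All 67 symbols equal a current human symbol, and 10 further human symbols of the same pattern, such as MRPS18C and MRPL23, had no named probe under that symbol. Of these, MRPL57 and MRPL58 had probes under their older symbols MRP63 and ICT1, which the rule does not take.

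The study compared 4 arrays, 2 of control cells and 2 of cells treated with berberine, a plant alkaloid. The cells are labelled HepG2, an established human hepatocellular carcinoma line, grown in serum-containing medium. Per the labels' protocols the treated cells received 26.95 µM berberine for 24 hours, and the controls none. Another field of the labels instead gives all 4 samples 48 hours of MDI-induced differentiation and the treated ones 13.47 µM of the alkaloid, and that conflict was not resolved. Nothing in the labels ties the replicates to different cultures. The p-values therefore set the difference between the groups only against the scatter of these arrays, and that scatter may be technical.

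Mitochondria keep their own ribosome, which makes a small set of hydrophobic core subunits of the respiratory chain and ATP synthase. Its RNAs are encoded by mitochondrial DNA, while all of its proteins are encoded in the nucleus, made in the cytosol and imported. Many of these proteins descend from bacterial ribosomal proteins, and others exist only in mitochondria. Loss of single subunits causes inherited deficiencies of oxidative phosphorylation, and berberine is widely described as an inhibitor of respiratory complex I.

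The array carries mouse probes, so a name below is the mouse gene a probe was designed for, read with RNA labelled as human. Levels are given as log2(value + 1) after quantile normalization, and signals of different probes were not ranked as expression. Olfactory receptor genes gave a mark for background signal, set at 9.24 (their 95th percentile), and 8 of the 67 genes had a mean above it (11.9%, against 9.15% of all genes). The other 59 had means at or below the mark, and the brightest olfactory receptor probe, at 11.85, exceeded every member. Median intensity was 62 to 90 per sample. Among marker lists, 1 of 14 hepatocyte, 2 of 14 adipocyte and 0 of 9 fibroblast markers had a mean above the mark. Albumin (ALB, mean 8.35) and alpha-fetoprotein (AFP, mean 4.75), which define HepG2 cells, were both below it. The summed signal of the hepatocyte list was 17766 and 16645 in the controls and 8043 and 9667 with berberine, that of the adipocyte list 3578 and 5131 against 3160 and 3928, and that of the fibroblast list 530 and 525 against 604 and 594. A single marker, RBP4 (retinol-binding protein), carried most of the hepatocyte sum, which without it was 2146 and 2019 against 1502 and 1840. By limma 0 markers passed. In the trend test RBP4 (-1.08, adjusted p = 0.025) and the fibrinogen gene FGG (-1.77, adjusted p = 0.0163) were called lower, both calls being lost with any 1 sample left out. These were 2 of the 14 hepatocyte markers, beside 1.46% of all genes. RBP4 had 3 probes, of which only the brightest is described. The smallest p of the adipocyte list was that of FABP4 (1.00) and that of the fibroblast list was that of POSTN (0.96). Most of both lists went the other way, with 10 of 14 adipocyte markers (median -0.133) and 6 of 9 fibroblast markers (median -0.055) below 0. The part of the markers in the values below was not tested. In bulk RNA, fewer cells of a type and less RNA per cell cannot be told apart.

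Upstream sequences of the human genes are shown first, as a feature that the naming rule did not use. RefSeq's promoter table (GRCh38.p14) held 60 of the 67 genes, and the 250 bases before each start were searched on both strands. The 4 stretches below are the 100 bases before the start of MRPS7, the member called in the trend test of genes, and of the 3 members with the largest rises above the median gene's signal. Capitals mark CCGGAAG, which only the MRPL40 stretch holds, the core bound by ETS factors such as GABP.
MRPS7 (GRCh38.p14, chr17:75261779-75261878, plus strand): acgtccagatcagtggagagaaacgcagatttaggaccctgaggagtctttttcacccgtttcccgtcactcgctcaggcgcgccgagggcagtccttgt
MRPL40 (GRCh38.p14, chr22:19432445-19432544, plus strand): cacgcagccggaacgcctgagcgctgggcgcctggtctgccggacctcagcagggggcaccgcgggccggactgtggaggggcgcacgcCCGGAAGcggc
MRPL50 (GRCh38.p14, chr9:101398619-101398718, minus strand): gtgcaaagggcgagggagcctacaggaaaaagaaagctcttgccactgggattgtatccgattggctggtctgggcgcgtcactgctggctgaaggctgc
MRPL41 (GRCh38.p14, chr9:137551779-137551878, plus strand): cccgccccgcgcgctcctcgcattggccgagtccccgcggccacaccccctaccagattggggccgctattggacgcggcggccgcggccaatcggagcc

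CCGGAAG or its reverse complement CTTCCGG stood in the 250 bases of 17 of 60 members (28.3%), against 8.82% of all 27305 promoters in the table, 11.7% of the 10312 whose genes were measured here and 7 of 28 cytosolic ribosomal protein genes. Of the 23 matches, 20 began within 100 bases of the start. MRPS34, a small subunit protein whose loss causes Leigh syndrome, held 3 matches, and MRPS22, another disease gene of the small subunit, held 2 in opposite directions, with 1 base between them. MRPL20, MRPL27 and MRPL51 also held 2 matches each. The stretches of MRPS34 and MRPS22 are shown as examples of the motif in clusters.
MRPS34 (GRCh38.p14, chr16:1773135-1773225, minus strand): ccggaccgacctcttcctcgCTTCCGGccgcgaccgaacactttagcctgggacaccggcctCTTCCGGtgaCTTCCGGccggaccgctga
MRPS22 (GRCh38.p14, chr3:139343887-139343941, plus strand): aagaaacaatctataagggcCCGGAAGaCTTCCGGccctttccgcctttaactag

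The NRF1 core GCGCATGCG or its reverse complement stood in 2 members (3.33%, against 1.78% of all promoters, 2.59% of those of genes measured here and 3.57% of the cytosolic ribosomal protein genes) and the YY1 core AAGATGGCG or its reverse complement in 2 (3.33%, against 0.641%, 0.815% and 0 of 28). MRPL17 and MRPL22 held the first, MRPL36 and MRPL52 the second. None of these shares was compared by a test. The NRF1 core shares letters with its own reverse complement, and the ends of the ETS and YY1 cores can share AAG, but no member held more than 1 of the 3 motifs. A match describes letters in a window and is no evidence of binding, and no match says only that these letters are not in this window. The 17 members with the ETS core had a median log2 fold change of -0.0066 with berberine and the 43 without it -0.085, and this difference was not tested.

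Some members lay head to head with another gene. A start on the opposite strand, heading away within 1000 bases, was found for 17 of 60 members (28.3%), against 16.5% of all promoters in the table, 19.3% of those measured and 7 of 28 cytosolic ribosomal protein genes. MRPS11 and MRPL46 form such a pair with each other, 320 bases apart. MRPS12, the homologue of the bacterial decoding-centre protein S12, faces SARS2, the mitochondrial seryl-tRNA synthetase, at 181 bases, and MRPL49 faces the ribosomal protein gene FAU at 49 bases. On the array, the log2 fold changes of the partners were -0.31 for SARS2 and 0.03 for FAU, beside 0.15 for MRPS12 and -0.13 for MRPL49. MRPL40 was at 1.02 while its partner HIRA was at -0.07. Over the 9 members with a measured partner, the signs were equal in 4, counting MRPS11 and MRPL46 each. Equal signs were seen for MRPS11 (-0.21) with MRPL46 (-0.15), MRPL51 (-0.29) with NCAPD2 (-0.18) and MRPL18 (-0.03) with TCP1 (-0.46).

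Few mitochondrial ribosomal protein genes were called between berberine-treated and control cells, at shares near those of all genes. With 2 samples a group and 59 of 67 signals at or below the background mark, this does not show that the genes were alike in both. By limma, 0 of 67 passed an adjusted p of 0.05, where 0.0506% of all genes did. At an unadjusted limma p under 0.05 there were 7 of 67 (10.4%), 4 higher and 3 lower, beside 13.0% of all genes. The smallest adjusted p was 0.143, for MRPS7. In the trend test, which is limma with an intensity trend in its variance model, 1 of 67 passed, again MRPS7 and lower, beside 1.46% of all genes.

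The members' median log2 fold change was -0.036, and that of all genes was -0.009. Below 0 lay 40 members (59.7%), beside 51.4% of all genes. That share was 44.8% with values as deposited and 50.7% without berberine replicate 1. With values as deposited, the members' median turned to 0.066 and that of all genes to 0.079. With median centring they were -0.047 and -0.034. Relative to all genes, the members' median therefore lay 0.027 lower by quantile normalization, 0.013 lower as deposited (and after median centring, which leaves this difference as it is), and 0.004 higher without berberine replicate 1. The sample medians of the members were 6.72 and 6.74 in the controls and 6.66 and 6.65 with berberine.

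On the normalized scale, both berberine values lay above both controls in 16 members, beside 21.7% of all genes, and below both in 17, beside 23.3%. The remaining 34 members overlapped between the groups. The share apart was therefore 49.3%, beside 45.0% of all genes. An exact permutation test of 2 against 2 samples cannot go below p = 0.333.

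**Figure D1:**
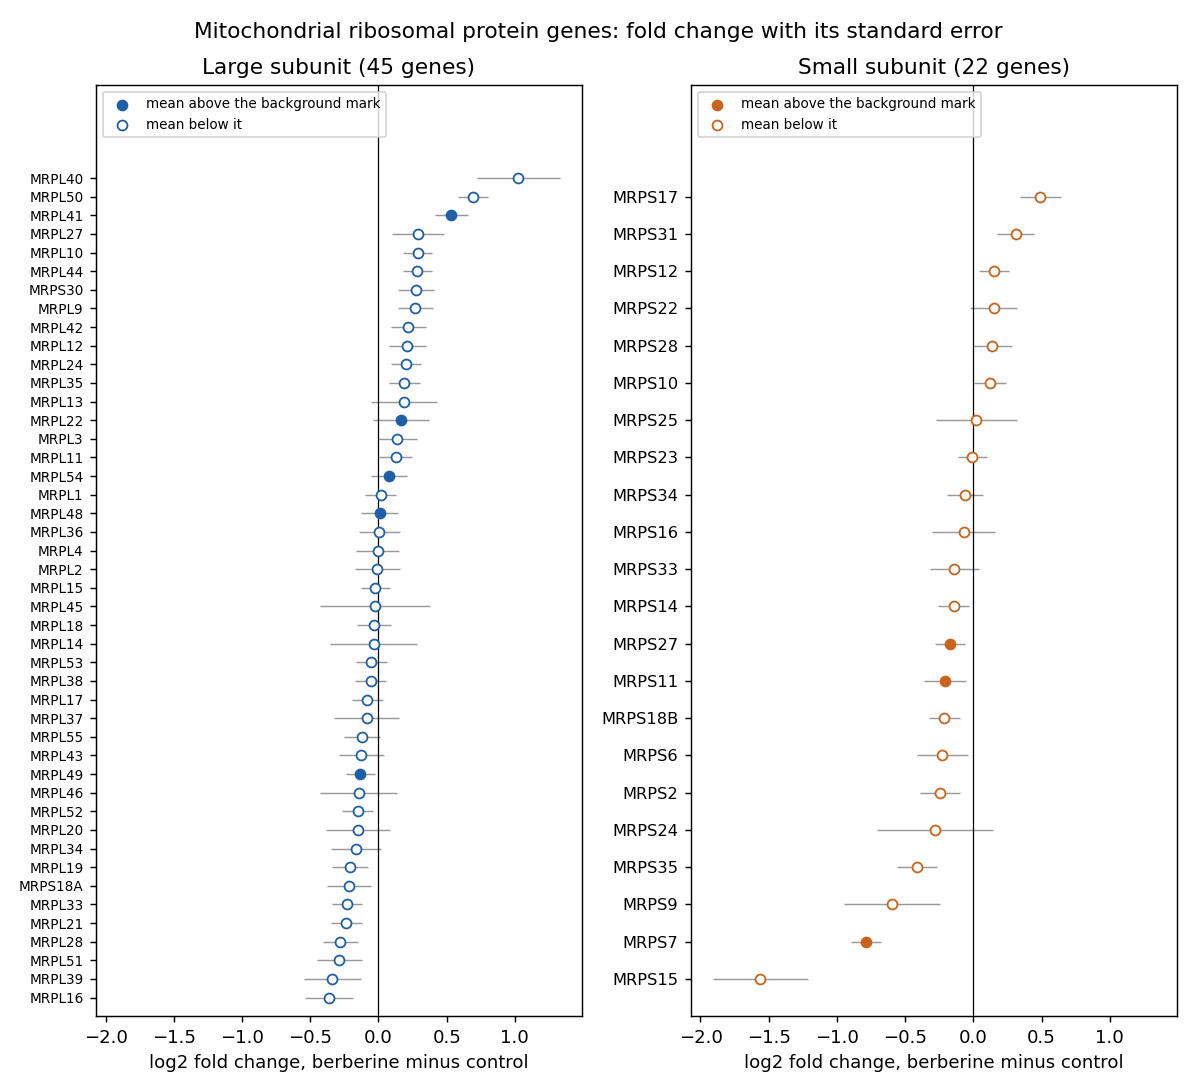
The log2 fold change (berberine minus control) of every member is drawn on the horizontal axis with its limma standard error, large subunit at left and small subunit at right. Filled points have a mean signal above the background mark of 9.24, and most genes lie within 0.5 of 0, with MRPL40 highest at 1.02 and MRPS15 lowest at -1.56.

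MRPS7 had the smallest p of the set. It encodes the homologue of bacterial S7, which binds the ribosomal RNA of the small subunit's head. Its deposited intensities were 2612 and 2343 in the controls and 1100 and 1355 with berberine. On the normalized log2 scale these became 11.16 and 11.22, then 10.38 and 10.43. Both treated samples were low and the groups did not overlap. The log2 fold change was -0.79 with an SE of 0.11, a level 1.73-fold lower (limma adjusted p = 0.143, trend test 0.0204). As deposited its values gave -1.02 and a trend test adjusted p of 0.00463, and after median centring -1.13 and 0.0569. Without control 1, control 2, berberine 1 or berberine 2 the trend test gave 0.269, 0.181, 0.583 and 0.589, with log2 fold changes from -0.83 to -0.75. MRPS7 had 1 probe, whose mean of 10.79 lay above the background mark.

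MRPS15 and MRPS9, homologues of bacterial S15 and S9, had the other large negative values of the small subunit and were chosen after their values were seen. MRPS15 read 49 and 13 in the controls and 20 and 8 with berberine as deposited. Its normalized levels were 5.31 and 5.04 against 4.07 and 3.17, at a log2 fold change of -1.56 with an SE of 0.35 (limma adjusted p = 0.26, trend test 0.199). Its deposited groups overlapped and the normalized ones did not, at a signal far below the mark. MRPS9 read 39 and 22 against 20 and 35 as deposited, with a log2 fold change of -0.60, an SE of 0.35 and overlapping groups. MRPS35, a small subunit protein without a bacterial counterpart, was at -0.41 with an SE of 0.15, also among the dimmest members. It read 31 and 4 in the controls and 21 and 16 with berberine as deposited, where its groups overlapped.

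MRPL40, in the chromosome region deleted in DiGeorge syndrome, had the largest positive value among the probes that represent genes. It read 70 and 90 in the controls and 143 and 174 with berberine as deposited. The normalized levels were 5.92 and 6.72 against 7.29 and 7.40. Both treated samples were higher than both controls, a condition for the largest rises named here, MRPL50 and MRPL41 included. The controls themselves differed by more than the treated samples did. The log2 fold change was 1.02 with an SE of 0.30 (limma adjusted p = 0.332, trend test 0.216), and it was 0.62 without control 1 and 1.34 without control 2. Without control 1 it lay below MRPL50, at 0.74, and its mean of 6.83 was below the background mark.

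MRPL50, a large subunit protein found only in mitochondria, read 191 and 140 in the controls and 229 and 268 with berberine. Its normalized levels were 7.39 and 7.29 against 8.03 and 8.03, so the groups were apart and the treated samples nearly equal. The log2 fold change was 0.70 with an SE of 0.11 (limma adjusted p = 0.174, trend test 0.0622). It ranged from 0.48 with median centring to 0.74 without control 1 and was positive in every setting. The probe's mean of 7.69 was below the background mark.

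MRPL41, a large subunit protein that is also studied as a binding partner of BCL2, read 613 and 474 in the controls and 622 and 726 with berberine. After normalization this was 9.08 and 8.91 against 9.54 and 9.51, with the groups apart. The log2 fold change was 0.53 with an SE of 0.12 (limma adjusted p = 0.262, trend test 0.0966). It was 0.32 as deposited and 0.20 after median centring. Its second, dim probe differed in the other direction, at -0.34 with an SE of 0.16, and the mean of both probes was at 0.10.

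**Figure D2:**
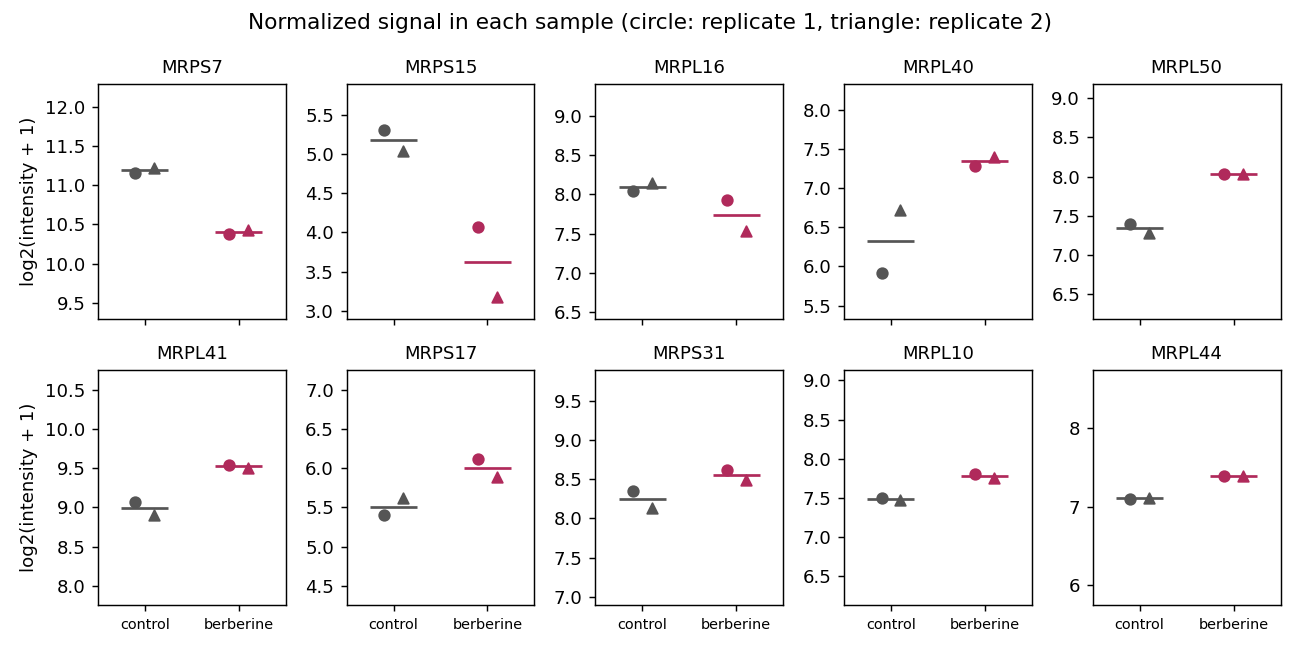
Normalized signal, log2(intensity + 1), of 10 members is plotted in each sample on axes that all span 3 log2 units, with the group mean as a line. The 2 berberine points lie on one side of both control points in every panel, as most of these members were chosen for (34 of the 67 overlap), and the control replicates are farthest apart in MRPL40.

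The stalk proteins are described by role, and none passed a test. MRPL10, which anchors the stalk that recruits translation factors, had levels of 7.51 and 7.48 in the controls and 7.80 and 7.76 with berberine. Its log2 fold change was 0.29 with an SE of 0.11 (adjusted p = 0.387 by limma), and 0.08 with median centring. MRPL12, the stalk protein itself, which also binds the mitochondrial RNA polymerase, was at 0.21 with an SE of 0.14, and MRPL11, at the stalk base, was at 0.13 with an SE of 0.12. After normalization all 3 had both treated samples above both controls, as 21.7% of all genes had, with means below the background mark. The other, dimmer probe of MRPL11 overlapped between the groups, at 5.16 and 5.43 in the controls and 5.63 and 5.04 with berberine. As deposited, MRPL10 (203 and 161 against 194 and 221) and MRPL11 (47 and 22 against 48 and 44) overlapped between the groups. MRPL1, of the mobile stalk at the exit side, was at 0.02 with an SE of 0.11.

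MRPL44, which carries a fold like that of RNase III, had levels of 7.10 and 7.11 in the controls and 7.39 in both treated samples. Its log2 fold change was 0.29 with an SE of 0.10 (limma adjusted p = 0.385). MRPS31, first studied as a diabetes autoantigen, was at 0.31 with an SE of 0.14 and at 0.04 with median centring. As deposited, MRPL44 (156 and 121 against 152 and 173) and MRPS31 (374 and 267 against 336 and 366) overlapped between the groups. MRPS17, the homologue of bacterial S17, was at 0.49 with an SE of 0.15, at levels of 5.40 and 5.62 against 6.12 and 5.89, and was named after its values were seen. MRPS30, at the large subunit, was at 0.27 with an SE of 0.13.

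Several members surround the catalytic centre and the tunnel through which the new peptide leaves. MRPL22, which lines the exit tunnel, gave the brightest probe of the set, with levels of 11.38 and 10.88 in the controls and 11.27 and 11.33 with berberine. The groups overlapped, at a log2 fold change of 0.17 with an SE of 0.21 that turned to -0.11 with median centring. MRPL45, which ties the tunnel exit to the inner membrane, was at -0.02 with an SE of 0.40, and its controls read 4.93 and 5.92. MRPL3, near the peptidyl transferase centre, was at 0.14 with an SE of 0.14, and turned to -0.11 with median centring. MRPL16, also near that centre, was at -0.36 with an SE of 0.18, its levels being 8.04 and 8.15 against 7.93 and 7.54.

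Among further members with lower berberine values were the large subunit proteins MRPL51 (-0.29, SE 0.17), MRPL21 (-0.24, SE 0.11) and MRPL33 (-0.23, SE 0.11) and the small subunit protein MRPS2 (-0.25, SE 0.15). After normalization each had both treated samples below both controls, which was a condition for being named among the largest falls. Of all genes, 23.3% lay so. None passed a test, with limma adjusted p-values from 0.459 to 0.544. As deposited, MRPL21 (137 and 100 against 95 and 111), MRPL33 (163 and 122 against 115 and 123) and MRPS2 (193 and 132 against 115 and 153) overlapped between the groups. The small subunit proteins MRPS11, a homologue of bacterial S11, and MRPS27, of the pentatricopeptide repeat family, lay above the background mark at -0.21 (SE 0.15) and -0.17 (SE 0.11). The groups overlapped for MRPS11 and were apart for MRPS27. MRPL49 and MRPL54, both of the large subunit and above the mark, were at -0.13 (SE 0.11) and 0.08 (SE 0.13), and MRPL54 turned to -0.25 with median centring.

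Of the members known as disease genes of the small subunit, MRPS16 was at -0.07 (SE 0.23), MRPS22 at 0.15 (SE 0.17) and MRPS34 at -0.06 (SE 0.13), each with overlapping groups. The S18 relatives MRPS18A and MRPS18B, one in each subunit, were at -0.22 (SE 0.16) and -0.21 (SE 0.11), at levels near 5 and with signs that turned under both other scalings. The other 32 members lay between -0.34 (MRPL39) and 0.29 (MRPL27), 22 below 0 and 10 above. Their smallest limma adjusted p was 0.443.

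By subunit, the median log2 fold change was -0.023 over the 45 large subunit genes and -0.141 over the 22 small subunit genes. Of the 7 members with an unadjusted limma p under 0.05, the large subunit held 3 (6.67% of its genes), all higher. The small subunit held 4 (18.2%), of which 1 was higher. The share of all genes was 13.0%. Of the lower ones, MRPS15 and MRPS35 were dim and their deposited groups overlapped. By origin, the median was -0.032 over the 39 genes with a bacterial counterpart and -0.038 over the 26 found only in mitochondria. In the small subunit, the 13 of bacterial descent had a median of -0.208 and the 8 found only in mitochondria -0.034. MRPS18A and MRPS18B, of the S18 family, are in neither class of origin. These medians were not compared by a test.

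**Figure D3:**
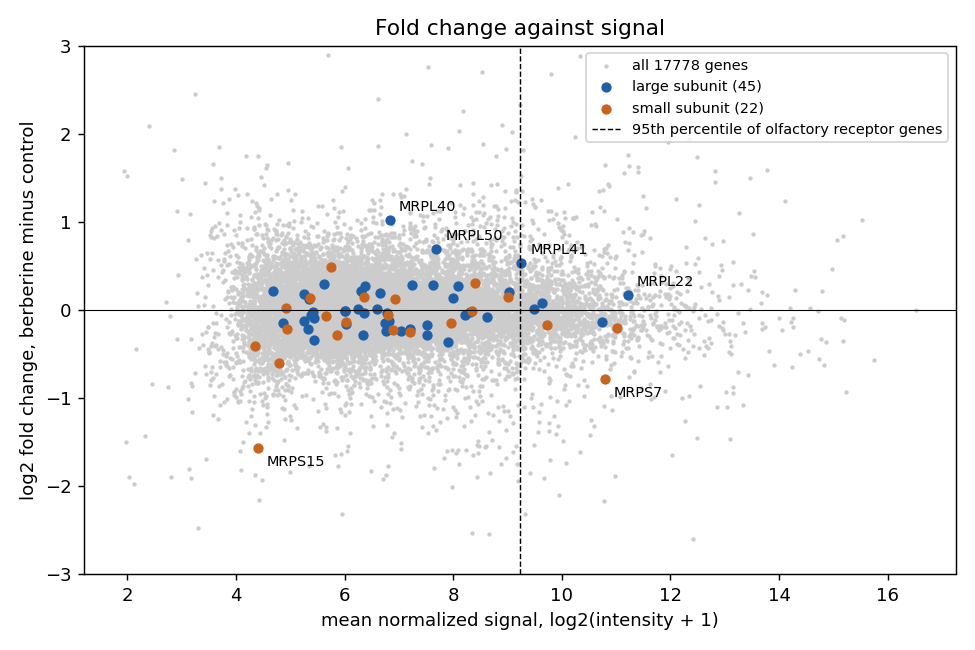
Log2 fold change (berberine minus control) is plotted against mean normalized signal for all 17778 genes in grey and the members in colour, with the olfactory receptor 95th percentile as a dashed line. The vertical axis ends at 3 in either direction and leaves out 7 genes, none of them a member, and the members lie within the grey cloud, with MRPS7 lowest among the 8 at right of the line.

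For 8 members more than 1 probe was present. The probes of MRPL17 were at -0.09 and -0.08, those of MRPL51 at -0.23 and -0.29, and those of MRPL1 and MRPL11 all between 0.02 and 0.13. The 3 probes of MRPS10 were at -0.14, -0.01 and 0.12. MRPL49 was at -0.13 on its bright probe and -0.66 (SE 0.24) on its dim one.

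The probes of MRPL48, a large subunit protein found only in mitochondria, differed most. The bright probe read 862 and 687 in the controls and 565 and 781 with berberine as deposited, with normalized levels of 9.55 and 9.43 against 9.39 and 9.61, a log2 fold change of 0.01 (SE 0.14). The dim probe read 71 and 44 against 116 and 141, with normalized levels of 5.94 and 5.94 against 6.99 and 7.08. Its log2 fold change was 1.10 with an SE of 0.11. With each probe as its own row it had a limma adjusted p of 0.127 and passed the trend test at 0.0329, as 1.30% of all named probes did. It is not the probe that represents the gene in the counts above, it was described after its values were seen, and the probe fit was not rerun with samples left out.

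**Figure D4:**
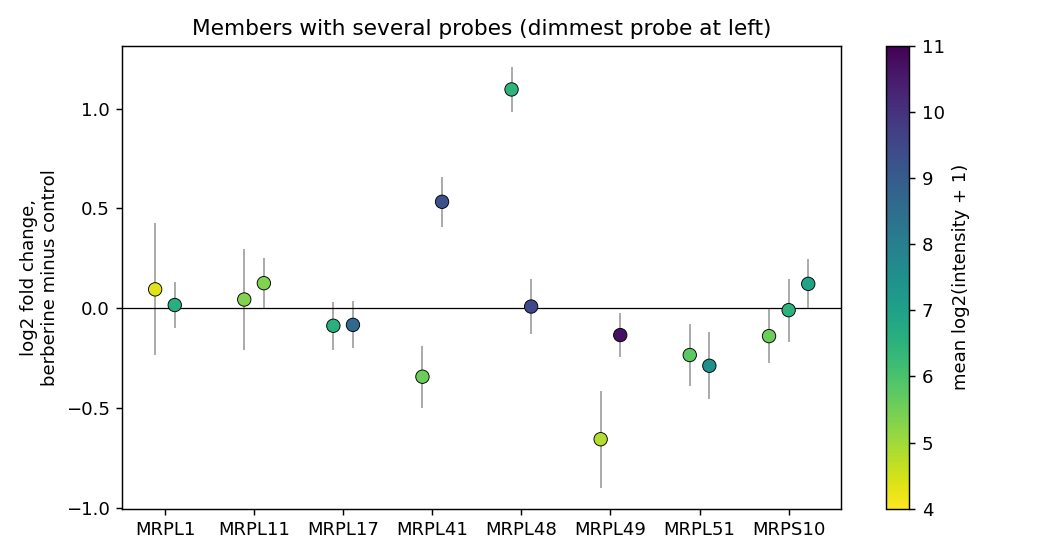
Log2 fold change (berberine minus control) with its standard error is shown for each probe of the 8 members with several probes, coloured by mean signal, dimmest probe at left. Probes of MRPL1, MRPL11, MRPL17 and MRPL51 lie close together, while those of MRPL41 lie on opposite sides of 0 and those of MRPL48 stand 1.1 apart.

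Subunits with other names and the factors that build and serve the mitochondrial ribosome were read from 7 lists. By limma 0 genes of any list passed, with 0 to 5 of each at an unadjusted p under 0.05. As shares these ran from 0.0% (translation factors) to 29.4% (mitochondrial DNA expression and its regulators), beside 13.0% of all genes. Of 5 ribosomal subunits named otherwise, CHCHD1 had the smallest p, at a log2 fold change of 0.45 (SE 0.14), and ICT1 (now MRPL58), which releases stalled ribosomes, was at -0.48 with 1 low treated sample. Of 21 assembly and RNA modification factors the median was -0.071, and RPUSD4, a pseudouridine synthase, was at 0.34 (SE 0.11). Of 13 translation factors the median was 0.002. TUFM, the elongation factor that delivers tRNA, was at 0.26 (SE 0.12) on the brighter of its 2 probes.

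Of 17 mitochondrial aminoacyl-tRNA synthetases and partners, 13 were below 0, with a median of -0.080, and AARS2, which charges alanine tRNA, was at -0.40 (SE 0.11, limma adjusted p = 0.307). Of 17 genes of mitochondrial DNA expression and its regulators, 10 lay below 0. Their median was -0.077, with values from -0.76 (PPARGC1A) to 1.21 (GABPB1). At an unadjusted limma p under 0.05 were 5 (29.4%), 4 higher and 1 lower, beside 13.0% of all genes. POLG2, the accessory subunit of the mitochondrial DNA polymerase, was at 0.78 (SE 0.11) on the brighter of its 2 probes. Its limma adjusted p was 0.147 and its trend test value 0.0519. In that list, GABPB1, a subunit of the ETS complex GABP, had levels of 9.09 and 8.64 in the controls and 10.07 and 10.08 with berberine. Its log2 fold change was 1.21 with an SE of 0.19 (limma adjusted p = 0.173, trend test 0.0559), while GABPA, its DNA-binding partner, was at -0.10 (SE 0.36). GABPB1 was named after its values were seen.

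Of 62 nuclear subunits of oxidative phosphorylation, 27 lay above 0 and 35 below, with a median of -0.026, and 0 passed the trend test, with 11 of 62 at an unadjusted trend test p under 0.05, beside 14.7% of all genes. By limma without trend the smallest p was that of NDUFA3, of complex I, at -0.68 (SE 0.13, limma adjusted p = 0.221). In the trend test it was that of NDUFS4, also of complex I, at 0.63 (trend adjusted p = 0.0698). The list of the mitochondrial stress response and proteases held 14 genes. At an unadjusted limma p under 0.05 were 4 (28.6%), 3 higher and 1 lower, beside 13.0% of all genes. In the trend test 2 passed, beside 1.46% of all genes. The list's median was 0.113, with 9 genes above 0 and 5 below. ATF4, a stress transcription factor, rose by that test at 0.99 (trend adjusted p = 0.0214, limma adjusted p = 0.111), and SPG7, an inner membrane protease subunit, fell at -0.76 (trend adjusted p = 0.0462, limma adjusted p = 0.192). Neither call held with any 1 sample left out, where the trend test called 0 genes. HSPE1, the mitochondrial co-chaperonin, was at 1.12 (SE 0.20) and did not pass.

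The 37 cytosolic ribosomal protein genes gave a similar summary. Their median log2 fold change was -0.025, beside -0.036 for the mitochondrial set. By limma 0 passed, with 4 at an unadjusted p under 0.05 (10.8%, beside 13.0% of all genes). In the trend test 1 of 37 passed, beside 1.46% of all genes. It was RPL4, at 1.03 (trend adjusted p = 0.0137, limma adjusted p = 0.107), a call also lost with any 1 sample left out. The difference between these sets was not tested.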

How the data were processed

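Total RNA of 4 samples was measured on 1-colour arrays with Cy5-labelled RNA, per the labels. The authors deposited 1 linear intensity per probe and sample, for 26423 probes, and how they scanned and normalized the arrays was not stated in the labels. Some values were negative (269 probes in control 2, at most 11 in any other sample), and log2 medians differed by 0.531. The platform annotation named 20377 probes, and 6046 unnamed ones were left out. Intensities were quantile normalized, set to at least 0 and transformed to log2(value + 1), and the probe with the highest mean represented a gene. The test was limma's (version 3.58.1, R 4.3.3; eBayes without trend, 2-sided, Benjamini-Hochberg over 17778 genes, threshold 0.05, 2 residual degrees of freedom). The scripts were tested on simulated data. Alternatives covered scaling, a filter on dim genes, pseudocount, variance model, probes, the replicate number as a block and each sample left out. Members and lists were chosen with earlier results of these data known, the olfactory receptor mark (528 genes) after seeing signals. Named members were those past a test, the 6 brightest, the 6 largest rises and 6 largest falls whose groups did not overlap and whose mean exceeded the median gene's, those with several probes, and fixed genes. Of each list, genes past a test were named, or else that with the smallest p. MRPS15, MRPS9, MRPS35, MRPS17, MRPS12, MRPL18, MRPL46, ICT1, GABPB1, GABPA, PPARGC1A, HSPE1, RPL4, NDUFS4, ALB, AFP, SARS2, FAU, HIRA, NCAPD2, TCP1 and the members at the ends of a range were named outside this rule. Motif searches and neighbour distances used RefSeq, GRCh38.p14. Plots were made in Python 3.11.15 (matplotlib 3.10.9).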

Additional observations from a re-analysis of the deposited data

How the results depend on the processing

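In the limma fit, 0 members passed, and the count was also 0 with values as deposited, median centring, the dimmest 30% left out, the robust option, the mean of probes, each probe as its own row, the replicate block and each sample left out. It was 1, MRPS7, with a pseudocount of 50, in the trend test, and in the trend test on values as deposited, and 0 in the trend test after median centring. Over all genes, the count of 9 became 2 with values as deposited, 0 with median centring, 138 with the dimmest 30% left out, 251 with a pseudocount of 50, 260 in the trend test, 3 with each probe as its own row, 0 with the replicate block and 0 with any sample left out. Before adjustment, limma gave p-values under 0.05 to 2244 genes with median centring, 1878 with the replicate block and 1385 to 2842 with a sample left out, against 2318. The labels do not say that replicate numbers pair samples, and deviations of same-numbered samples correlated at 0.0904. The trend test gave 283 genes with values as deposited (99 higher, 184 lower, against 171 and 89) and 189 after median centring (60 and 129), and 0 with any sample left out (1405 to 3095 at an unadjusted p under 0.05). These trend combinations were chosen after seeing the data.

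The members' median log2 fold change of -0.036 moved to 0.066 with values as deposited and to between -0.061 (without control 2) and -0.0016 (without berberine 1) with a sample left out. Of the planned values of named members, 369 kept direction and side of the threshold, 2 (MRPS7) came to pass it and 27 turned sign, all from probes that passed no test. With values as deposited these were MRPL45 at 0.156, MRPL48 at -0.212, MRPL54 at -0.135, MRPS16 at 0.198, MRPS18A at 0.232 and MRPS18B at 0.354. With median centring they were MRPL1 at -0.0166, MRPL22 at -0.109, MRPL3 at -0.111, MRPL45 at 0.0429, MRPL48 at -0.325, MRPL54 at -0.248, MRPS16 at 0.0842, MRPS18A at 0.119 and MRPS18B at 0.241. With the mean of probes MRPS10 was at -0.0089. With a sample left out, values ran from -0.0465 to 0.0703 for MRPL1, -0.0783 to 0.428 for MRPL22, -0.539 to 0.383 for MRPL45, -0.0997 to 0.118 for MRPL48, -0.0357 to 0.197 for MRPL54, -0.370 to 0.239 for MRPS16, -0.0175 to 0.309 for MRPS22 and -0.169 to 0.0648 for MRPS34. The cause was not tested.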
